A study of Mus musculus with 15 samples.

Results

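The transcripts described here are 45 RefSeq IDs of non-coding RNAs that the authors assigned as the nearest expressed gene to a genomic site bound by both RevErbalpha and RevErbbeta in mouse macrophages. They were chosen by their ID, which begins with NR_, a rule that reads no measured value, and make up 45 of the 1220 assigned IDs (3.69%). They carried 57 of the 1544 common RevErb sites (3.69%). The authors' heading calls the assigned genes protein-coding, and these 45 IDs are the exception. The IDs carried 44 gene symbols, since the gene Morrbid had 2 IDs from 1 start. Of the 45 IDs, 40 were found in the RefSeq table: 27 as long non-coding RNAs, 2 as small nucleolar RNAs, 4 as transcribed pseudogenes and 7 as non-coding transcripts of genes that RefSeq lists as protein-coding (Ankrd11, Fance, Gpr146, Phf21b, Senp2, Stoml1 and Tyms). The other 5 IDs had no entry there, so their type was not checked. By name, E230029C05Rik and Btbd19 matched RefSeq genes of the same name, and 1810010D01Rik matched Smim38. The types of these genes were not recorded. The label non-coding thus describes the transcript IDs and not every gene behind them.

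RevErbalpha and RevErbbeta are heme-binding nuclear receptors of the circadian clock that repress transcription through the corepressor NCoR and its histone deacetylase. They bind as monomers to an A/T-rich stretch followed by AGGTCA, or as pairs on repeats of that half-site. In macrophages many of their sites are enhancers, which are themselves transcribed into short unstable RNAs. Long non-coding RNAs are transcripts without a known protein product; some host microRNAs or small nucleolar RNAs in their introns, some lie against a coding gene, and some share their starts with enhancers.

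Binding was measured by biotin ChIP-seq in RAW macrophages, a mouse macrophage line, that expressed BLRP-tagged RevErbalpha or BLRP-tagged RevErbbeta, with a library of BirA cells (BirA is the biotin ligase) as the background. The starts of capped RNAs still being made were counted by 5'GRO-seq, in the BTEV-Ctrl line of RAW cells and in the line with BLRP-tagged RevErbalpha. Nascent RNA was measured by GRO-seq in bone marrow derived macrophages, from marrow grown in L-cell conditioned medium and then M-CSF, of the genotype RevErbalpha flox/flox; RevErbbeta flox/flox (labelled WT) and of the same genotype with Tie2-Cre (labelled DKO). All groups carry C57Bl6 as their background in the labels. The control cells of the knockout carry both floxed alleles too, and Tie2-Cre acts in blood and endothelial lineages and not in macrophages alone. Whether the tagged RAW lines were single clones, and how many animals gave marrow, was not given in the sources used here. Each group has 1 sample in the labels. The table gave 3 runs for each RevErb and 2 for each genotype. The labels hold 1 sample for the runs of a group and do not say whether the runs were prepared separately. The runs were therefore not taken as replicates, no test was run between groups, and the spread of runs may be technical.

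Total tags were 598490 to 5276592 in the RevErb runs, 10548880 in BirA, 18708148 and 7238710 in the control and tagged 5'GRO-seq libraries, and 34852907 to 46649008 in the GRO-seq runs. Of 10 macrophage markers, the table held 4 (Csf1r, Tyrobp, Fcgr1 and Itgb2), with WT GRO-seq levels of 9.64 to 12.52 on the log2 scale. It held none of the 17 listed markers of lymphocytes, neutrophils, endothelial cells and fibroblasts, but it lists only genes with a common site, so their levels were not measured here. Nr1d1, the gene of RevErbalpha, was at 7.91 and 7.48 in the WT runs and at 9.44 and 9.56 in the DKO runs. These values count nascent reads over a gene whose deleted part the sources used here do not give, so they do not check the deletion.

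Of 31 well-known long non-coding RNAs listed, 3 were members: Dleu2, Mir22hg and Pvt1. None of 36 microRNA genes with roles in myeloid cells and none of 20 small nucleolar RNA host genes was assigned a site under its own ID. Dleu2 and Mir22hg are hosts of microRNAs, so the products of their nascent transcripts are shown here (RefSeq, GRCm38.p6). Capitals mark the seed, bases 2 to 8, which pairs with target mRNAs.
miR-15a-5p: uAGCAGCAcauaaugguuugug
miR-16-5p: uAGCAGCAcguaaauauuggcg
miR-15a-3p: cAGGCCAUacugugcugccuca
miR-16-1-3p: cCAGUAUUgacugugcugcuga
miR-22-5p: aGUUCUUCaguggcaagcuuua
miR-22-3p: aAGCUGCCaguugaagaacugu
The 5p arms of the Dleu2 pair share the seed AGCAGCA, and the other 4 seeds each occur once. The pair is known for repressing Bcl2 and cyclin mRNAs. Its hairpins lie on the minus strand of chromosome 14 within Dleu2, and miR-22 lies on the plus strand of chromosome 11 within Mir22hg.

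A RevErb site lay within the promoter window of 3 genes, 1700096K18Rik, Morrbid and Trmt61b (site at -61). The starts of the first pair are shown next, since they hold a motif searched for; the 2 RefSeq promoters of Trmt61b hold none of the 6. Of the 8 genes with a site within 1 kb of the assigned start, all had a RefSeq promoter entry (9 promoters, each 250 bases before to 50 after the start). The 6 motifs searched on both strands were the receptor half-site AGGTCA, that half-site with a T before it, the full monomer element of RevErb and ROR receptors (the half-site behind an A/T-rich stretch), a direct repeat of the half-site with a spacer of 2, the AP-1 motif TGANTCA and the PU.1 motif GAGGAAGT. The first 3 overlap one another. The half-site was in 1 of the 9 promoters and in 16.3% of 32851 RefSeq promoters, the AP-1 motif in 2 of 9 and 7.81%, and the PU.1 motif in 3 of 9 and 3.20%. The 1 promoter with the half-site, that of 1700096K18Rik, had the T before it too (2.61% of all promoters) and held the full monomer element, which is in 72 of all promoters (0.219%). The direct repeat was in none of the 9 and in 0.0091% of all. A match is a description of the letters only, and the start in the RefSeq table may differ from the authors' start.
1700096K18Rik, chr5:25529768-25530067, plus strand, the monomer element in capitals: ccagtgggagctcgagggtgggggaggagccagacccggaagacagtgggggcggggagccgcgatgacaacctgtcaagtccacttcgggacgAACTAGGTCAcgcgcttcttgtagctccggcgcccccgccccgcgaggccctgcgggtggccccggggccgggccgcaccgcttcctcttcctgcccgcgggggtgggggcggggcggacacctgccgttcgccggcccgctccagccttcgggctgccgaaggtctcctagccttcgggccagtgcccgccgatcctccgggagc
Morrbid, chr2:128429302-128429601, minus strand, the PU.1 and then the AP-1 motif in capitals: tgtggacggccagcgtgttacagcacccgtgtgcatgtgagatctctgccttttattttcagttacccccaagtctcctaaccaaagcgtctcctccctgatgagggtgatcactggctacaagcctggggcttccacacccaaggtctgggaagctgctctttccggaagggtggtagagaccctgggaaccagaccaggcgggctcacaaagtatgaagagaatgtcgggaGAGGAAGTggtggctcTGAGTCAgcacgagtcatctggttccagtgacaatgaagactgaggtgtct
Coordinates are those of GRCm38.p6. The RevErb element of 1700096K18Rik began 156 bases before the start, and its site was centred 180 bases before the start. In Morrbid the PU.1 letters began 17 bases and the AP-1 letters 1 base before the start, where a site was centred 8 bases into the transcript.

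By the authors' histone classes, 18 of the 57 sites were genic enhancer-like (31.6%, exact Clopper-Pearson 95% interval 19.9 to 45.2), 22 were intergenic enhancer-like (38.6%, 25.996 to 52.4) and 17 had H3K4me3 above H3K4me1 (29.8%, 18.4 to 43.4), the pattern of an active start. Over all 1544 sites these shares were 44.5%, 36.0% and 19.5%. The interval of the genic share included the value over all sites at its upper end, and that of the H3K4me3 share included it near its lower end. The intervals cover counting error only, and sites of 1 gene are not independent. A start lay within 1 kb of 9 sites (15.8%, against 9.84% of all sites), and within 10 kb of 24. Sites beyond 100 kb numbered 9 (15.8%, against 13.2%). The distance ranged from 8 to 354592 bp with a median of 17890 bp, against 22430.5 bp over all sites. There were 22 sites upstream and 35 downstream of the assigned start. At 2 sites, those of Ankrd11 and AU019990, the nearest start of any kind belonged to another ID. Gm7367 sat on chromosome 7 in RefSeq and on chromosome 11 in the authors' table, so its assignment is uncertain.

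The sites lay on 16 chromosomes, with 12 of the 57 on chromosome 2. Of the 45 IDs, 36 had 1 site, 6 had 2 and 3 had 3. Morrbid had 5 sites over both of its IDs, spread over 178928 bp. Pvt1 had 3 sites over 240223 bp, and E230029C05Rik had 3 over 22010 bp. The genes 1810010D01Rik, A530013C23Rik, Btbd19, Senp2 and Stoml1 had 2 sites each. In RefSeq 15 members overlap a protein-coding gene: Bach2os overlaps Bach2, a transcriptional repressor of lymphoid cells, and A530013C23Rik lies within 10 kb of Cebpb, a transcription factor of macrophage differentiation. Of 41 protein-coding genes that overlap members or lie within 10 kb of them, 1, Igf2bp2, was itself assigned a site.

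Both RevErbs occupied the 57 sites at the level of all common sites. Binding is given as log2 tags per 10000000 in 157 bp. The median was 5.47 for RevErbalpha (range 4.02 to 7.24) and 5.60 for RevErbbeta (3.58 to 7.86), against 0.98 for BirA (0.03 to 2.33). Over all 1544 sites the medians were 5.45, 5.68 and 1.10. The sites were called for this signal, so it is a description. All 6 RevErb runs lay above BirA at 55 of the 57 sites (96.5%, against 97.3% of all sites). The exceptions were the site of NR_027370 and the E230029C05Rik site at +4913, where RevErbbeta run 3, of 780281 tags, was at 0.79 and 1.40. In a shallow run, lying above BirA need not mean that tags were seen. RevErbalpha runs 2 and 3 and RevErbbeta run 3 were scaled up by 14.65, 16.71 and 12.82. At the 1110006O24Rik site RevErbalpha runs 2 and 3 stood at 3.05 and 3.98 on about 0 tags. Several other member sites also had a run at about 0 tags. RevErbbeta was above RevErbalpha at 33 sites (57.9%, against 66.1% of all sites).

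**Figure D1:**
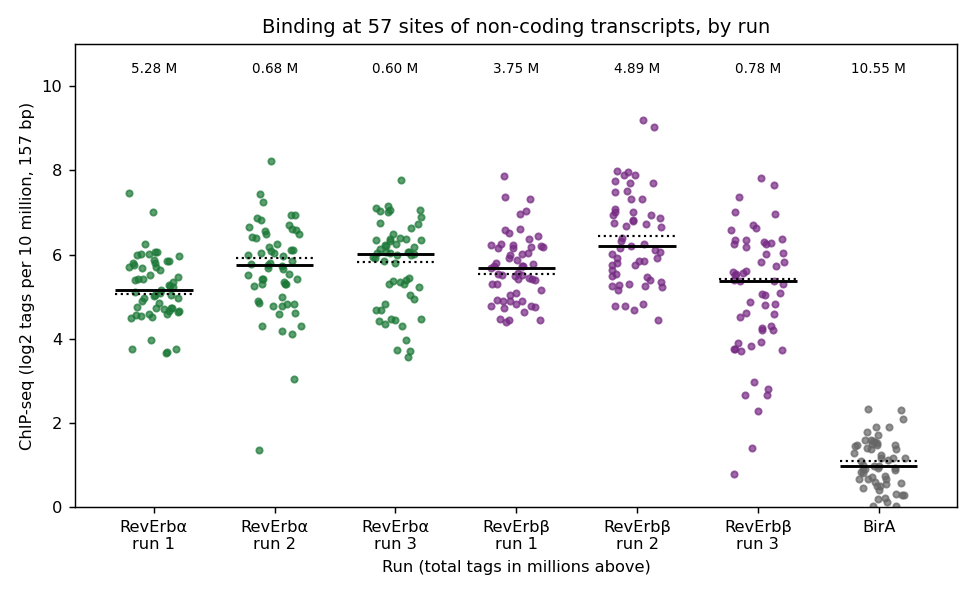
ChIP-seq level (log2 tags per 10000000 in 157 bp, vertical axis) at the 57 sites in each RevErb run and in BirA, with the total tags of the run printed above. Solid lines are medians over the 57 sites and dotted lines medians over all 1544 sites; the run medians of the 57 sites lie between 5.17 and 6.20 and that of BirA at 0.98.

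The most strongly bound site was that of D4Ertd617e, a long non-coding RNA that overlaps the ribosome biogenesis gene Ebna1bp2. It stood at 7.01, 6.94 and 7.77 in the RevErbalpha runs and at 7.33, 9.19 and 6.63 in the RevErbbeta runs, a mean of 7.48. Next came B930059L03Rik, near the dynein heavy chain gene Dync1h1, at 7.29, the Morrbid site 38286 bp upstream at 7.25, the distal Pvt1 site at +354592 at 7.02 and the Gm16897 site at 6.62. These 5 sites differed widely in nascent RNA: the D4Ertd617e site held about 0 tags in both 5'GRO-seq libraries (0.59 and 0.55) and the Gm16897 site about 205 and 62. Strong binding was thus found at members with and without capped nascent RNA. The strongest site, although its H3K4me3 was above its H3K4me1, lay 31594 bp from its assigned start.

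In RAW cells with tagged RevErbalpha, 8 of the 57 sites were lower in 5'GRO-seq by 1 or more on the log2 scale (14.04%) and 4 were higher by 1 or more (7.02%). Over all 1544 common sites 20.0% were lower and 4.92% higher. The median difference was -0.24 over the members and -0.23 over all sites, nearly the same value. Levels are log2 tags per 10000000 in 500 bp, with 1 library per group, and the tagged library was the shallower. The whole distribution was offset: the median over all sites was 6.06 in control and 5.77 in tagged cells, a shift of -0.29. Relative to that shift, 4 member sites were lower and 7 higher by 1 or more, against 15.3% and 9.26% of all sites, and the median of the members became 0.055. Among the 7, the sites of Mx2 at -2123 and Phtf1os at -124682 held about 0 tags in both libraries, so their differences measure nothing. The B930059L03Rik site held about 6 tags in each. Snord123 at -82140 was better covered, at 7.24 and 7.98 on about 283 and 182 tags, and stood at 1.035 relative to the shift. Thin counts occurred among the 4 lower sites too: Gm7854 held about 16 and 0 tags, and Morrbid at -123678 about 48 and 1. The 7 and the 4 therefore do not show whether more members rose or fell. In bulk samples, fewer cells that make an RNA and less RNA per cell cannot be told apart, and neither can the tagged protein and other differences between 2 cell lines.

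**Figure D2:**
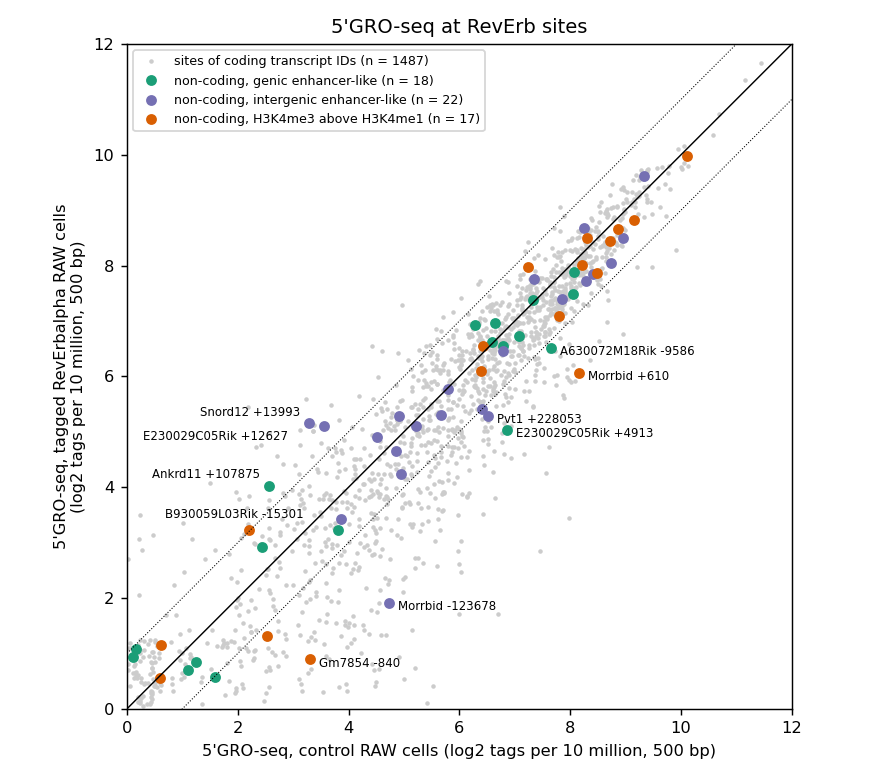
5'GRO-seq level (log2 tags per 10000000 in 500 bp) of each site in control RAW cells (horizontal) and in tagged RevErbalpha RAW cells (vertical), with sites of coding IDs in grey and member sites coloured by histone class. The solid line marks equal levels and the dotted lines a difference of 1; named sites lie beyond them and have 3 or more in at least 1 library.

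Both sites of Morrbid that passed the size rule were far lower in tagged cells. The site 123678 bp upstream (chr2:128378687-128378843, mm9, intergenic) was at 4.73 in control and 1.91 in tagged cells (-2.82). It held about 48 and 1 tags, a ratio of tagged to control cells of 0.054 per library total with an exact 95% counting interval of 0.0013 to 0.315. The site at +610 (chr2:128254399-128254555, mm9), within the first kilobase of the transcript, was at 8.16 and 6.06, a difference of -2.10 on about 537 and 47 tags. Both remained past the size rule relative to the overall shift, at -2.52 and -1.81, and with 10 added before the logarithm, at -1.48 and -1.96. E230029C05Rik had one site lower (+4913, 6.86 to 5.04, about 217 and 23 tags) and another 7714 bp away higher (+12627, 3.55 to 5.11, about 20 and 24 tags). The +12627 site held nearly the same number of tags in both libraries, although the tagged library was the shallower (7238710 against 18708148 total tags). Per library total this is a difference of 1.56. It rests on few tags, and no counting interval was computed for it.

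The other lower sites fell into deep and shallow ones. A630072M18Rik, also known as Aptr, overlaps Rsbn1l; its site at -9586 was at 7.65 and 6.51, about 377 and 65 tags. Pvt1 at +228053 was at 6.51 and 5.28, about 170 and 27 tags. Relative to the overall shift these 2 sites stood at -0.84 and -0.94, short of the size rule. Gm7854, which overlaps the translation regulator gene Cpeb2, was at 3.30 in control cells on about 16 tags at its site at -840 and held about 0 tags in tagged cells. A count of 0 allows up to 3 tags, a level of 2.36, and the exact counting interval of the ratio reached 0.670. Senp2, the gene of a SUMO protease, was at 2.52 and 1.32 at +960 on about 8 and 1 tags, a ratio of 0.323 with a counting interval of 0.0073 to 2.41, which includes equal levels. The site of 1110006O24Rik at +8721 held about 3 and 0 tags, too few to give its difference. With 10 added before the logarithm the Gm7854 and Senp2 differences were -0.80 and -0.36. The ratios and limits cover counting error only and rest on approximate tags.

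The other higher sites were all shallow. Snord12, a guide RNA for ribosomal RNA methylation, had a site at +13993 with 3.29 in control and 5.16 in tagged cells, about 16 and 25 tags. Ankrd11, a chromatin regulator, had a site at +107875 with 2.56 and 4.03, about 9 and 11 tags. B930059L03Rik at -15301 stood at 2.21 and 3.22 on about 6 tags in each library. With 10 added before the logarithm, Snord12 and the E230029C05Rik +12627 site stayed above 1, at 1.25 and 1.07, while Ankrd11 and B930059L03Rik did not, at 0.77 and 0.43. The member sites with the highest control levels were those of 6820431F20Rik (10.11 and 9.98) and 4930426L09Rik (9.34 and 9.62). They differed by -0.13 and 0.28, and stood at 0.165 and 0.575 relative to the shift over all sites. Other deep sites differed more: Mir22hg at -2666 by -0.70 on about 804 and 189 tags, and Morrbid at +610 by -2.10 on about 537 and 47.

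In the bone marrow derived macrophages, GRO-seq at the sites themselves was higher by 1 or more in DKO at 3 of 57 sites (5.26%, against 3.37% of all sites) and lower at 0 of 57 (against 2.20%). The median difference was 0.045 over the members and 0.03 over all sites. The 3 sites were 1810010D01Rik at +20093 (2.36 in WT, 3.44 in DKO), Gm11110 at -7200 (2.29 and 3.35) and Pvt1 at +354592 (2.33 and 3.35). All 3 are intergenic enhancer-like and started from a similar low level. They lie at the edge of the rule: relative to the shift of 0.083 over all sites they stood at 0.998, 0.97 and 0.94, and none reached 1. By class, the median was 0.24 at the 22 intergenic sites and -0.12 at the 18 genic ones, while over all sites of those classes it was 0.022 and 0.04. There is 1 column per genotype here, so no spread between runs can be set beside these values.

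At the level of the whole transcript, few members were called between WT and DKO. Of the 45 IDs, 1 was higher (2.22%; background over all IDs 1.97%) and 1 lower (2.22%; background 0.738%), where a call needs a difference of 0.5 on the log2 scale and runs that do not overlap. The median difference was 0.03, against 0.035 over all IDs, and 31 of the 45 differed by less than 0.25 (68.9%, against 82.6% of all IDs). Both DKO runs lay above both WT runs for 11 of the 45 IDs (background 224 of 1220, 18.4%). They lay below for 10 of the 45 (background 122 of 1220, 10.0%), and the runs overlapped for 24. Both member shares were above their background, which was not tested. The root mean square SD between runs was 0.241 in WT and 0.236 in DKO. The median level of the members was 8.39, below the 9.88 of all assigned IDs. Levels rise with gene length (Spearman rho 0.51 over 1207 IDs and 0.48 over 39 members, across genes, which are not independent), so single genes are not ranked by level.

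**Figure D3:**
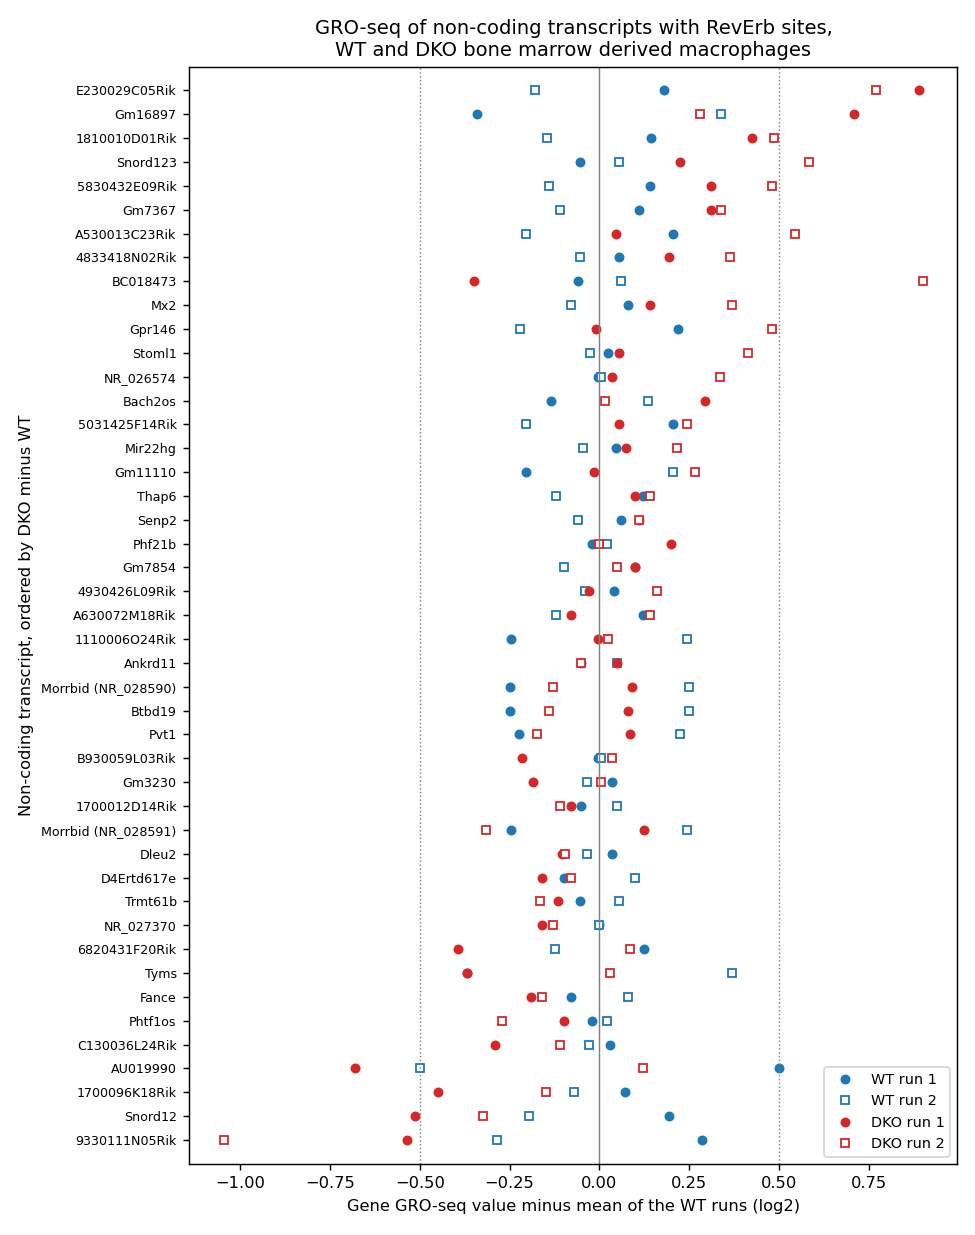
GRO-seq of each of the 45 transcripts (rows, ordered by DKO minus WT) in the 2 WT and 2 DKO runs, as the difference on the log2 scale from the mean of the WT runs. Dotted lines mark 0.5; E230029C05Rik at the top and 9330111N05Rik at the bottom are the only rows whose mean difference passes it with runs that do not overlap.

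The transcript called higher was E230029C05Rik, on chromosome 7 in mm9, a RIKEN cDNA with no entry under its ID in the RefSeq table. It stood at 7.17 and 6.81 in the WT runs and at 7.88 and 7.76 in the DKO runs, a difference of 0.83. Leaving out any single run gave 0.65 to 1.01. Its 3 sites stood at 0.52, -0.135 and 0.81 in DKO minus WT. The called-lower transcript was 9330111N05Rik, a long non-coding RNA on chromosome 13, at 5.62 and 5.05 in WT and 4.80 and 4.29 in DKO. Its difference of -0.79 ranged from -1.07 to -0.51 without single runs, and its site 23065 bp upstream differed by -0.12 at GRO-seq. Both called transcripts lay below the lower quartile of level over all IDs (8.43), and none of the 22 members above it was called. Both calls held without any single run, but more members were then called. With 1 run left in a genotype, non-overlap is easier to meet. The share of all IDs called was not computed there, so the rise is not a result about the members.

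Several members came near the rule. Gm16897, which overlaps the stem cell antigen gene Cd34, stood at 5.46 and 6.14 in WT and 6.51 and 6.08 in DKO, a mean difference of 0.49 with overlapping runs. 1810010D01Rik was at 4.91 and 4.62 in WT and at 5.19 and 5.25 in DKO (0.46), and did not overlap. Its 2 sites differed by 1.08 and 0.09 in DKO. Relative to the shift over all sites these were 0.998 and 0.0075, so only the first stood clearly above that shift. The small nucleolar RNAs differed in opposite directions: Snord123 was at 6.66 and 6.77 in WT and 6.94 and 7.30 in DKO, and Snord12 at 6.97 and 6.58 in WT and 6.26 and 6.45 in DKO. Both are under 100 bases long (88 and 66), so reads of a longer transcript over them could count as theirs.

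The microRNA hosts differed little between genotypes. Dleu2 was at 13.73 and 13.66 in the WT runs and at 13.59 and 13.60 in the DKO runs, a difference of -0.10 with both DKO runs lower. Its site at +902 was at 6.43 and 6.54 in control and tagged 5'GRO-seq, and at 5.89 and 6.16 in WT and DKO GRO-seq. Mir22hg was at 10.52 and 10.43 in WT and at 10.55 and 10.69 in DKO, a difference of 0.145 with both DKO runs higher. Its site at -2666 was at 8.74 and 8.04 in 5'GRO-seq (about 804 and 189 tags), and at 5.46 and 5.81 in WT and DKO. Thus neither host passed the size rule at its gene or at its site, and GRO-seq does not measure the mature microRNAs printed above.

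Morrbid, a long non-coding RNA known to restrain the pro-apoptotic gene Bcl2l11 (Bim) next to it in short-lived myeloid cells, was the member with the most sites. Control and tagged 5'GRO-seq, in this order, were 4.73 and 1.91 at -123678, 4.85 and 4.65 at -38286, 7.79 and 7.09 at +8, 8.16 and 6.06 at +610, and 8.06 and 7.89 at +55250. All 5 sites were lower in tagged cells as deposited. Relative to the overall shift the sites at -38286 and +55250 turned slightly higher, at 0.095 and 0.125. The sites at +8 and +610 lie 602 bp apart, so their 500 bp windows do not overlap, and their differences were unequal (-0.70 and -2.10). GRO-seq in DKO was lower than in WT at all 5 sites, by 0.06 to 0.51, and remained so relative to the overall shift. The WT and DKO levels ran from 0.29 and 0.23 at -38286 to 5.63 and 5.25 at +8.

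At the gene, the Morrbid runs overlapped under both IDs. NR_028590 was at 10.54 and 11.04 in WT and 10.88 and 10.66 in DKO (-0.02), and NR_028591 at 9.90 and 10.39 in WT and 10.27 and 9.83 in DKO (-0.095). The IDs share reads of 1 gene and are not separate measurements. Without WT run 2 their differences were 0.23 and 0.15, and without WT run 1 they were -0.27 and -0.34, so the sign rests on single runs. Bcl2l11 itself had 2 common sites and stood at 11.58 and 11.31 in WT and 11.22 and 11.50 in DKO, also overlapping. Its site at +114713 passed the size rule in GRO-seq, at 0.425 in WT and 1.58 in DKO, both low levels. As many as 3.37% of all sites were higher in DKO by 1 or more. The Bcl2l11 site at -70939 differed by -0.23. In tagged cells these 2 sites differed by 0.97 and -0.63 in 5'GRO-seq. The strongest Morrbid site by binding, at -38286, was thus not the one with the largest 5'GRO-seq difference.

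**Figure D4:**
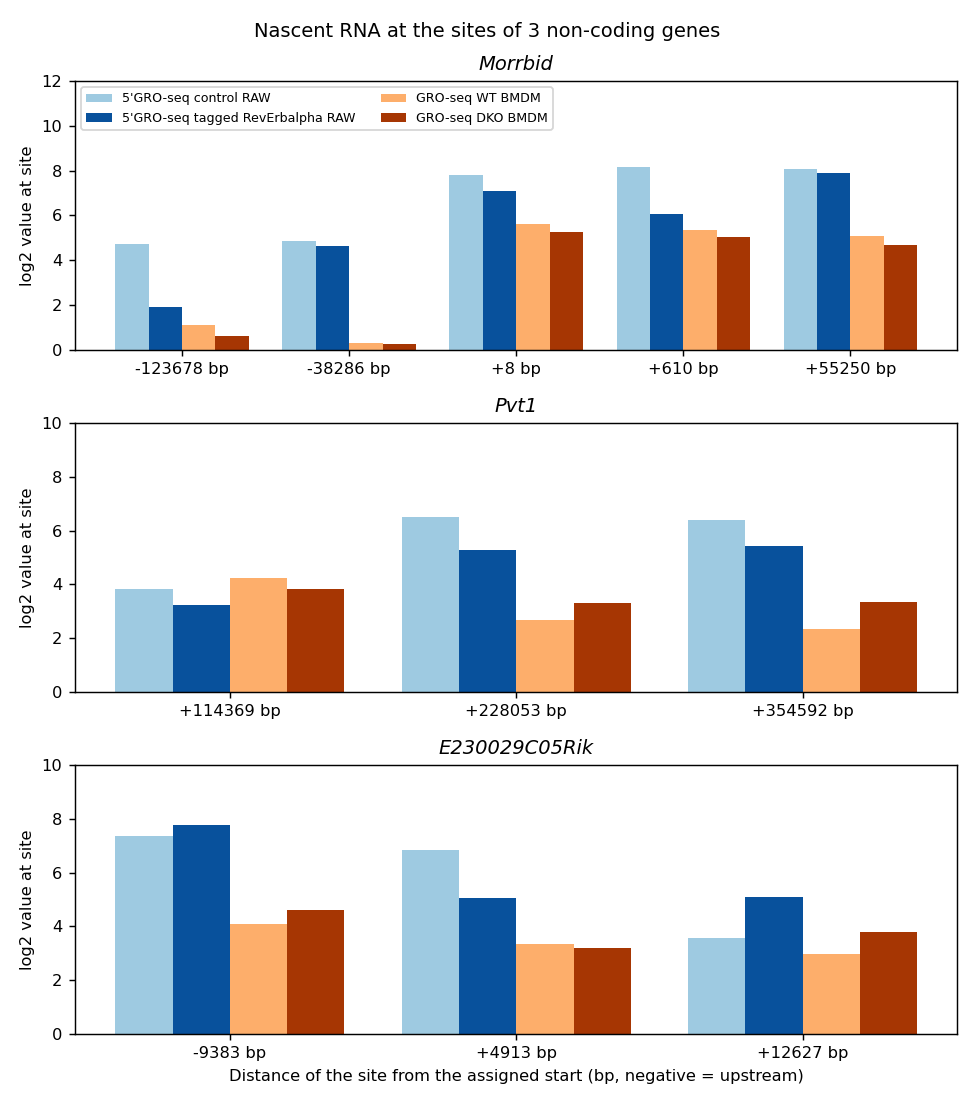
Nascent RNA at each site of Morrbid, Pvt1 and E230029C05Rik, by distance from the assigned start (horizontal), as log2 levels (vertical, starting at 0) in 4 bars: control RAW, tagged RevErbalpha RAW (both 5'GRO-seq), and GRO-seq of WT and DKO bone marrow derived macrophages. Each bar is 1 column of the table without error; the 2 assays are scaled differently and are to be compared only within an assay.

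Pvt1, a long host transcript downstream of Myc that is known for its link to Myc protein levels, had sites at +114369, +228053 and +354592. RefSeq gives the gene 222230 bp, and by that length the outer 2 lie past its end. In 5'GRO-seq the sites were at 3.81, 6.51 and 6.40 in control and at 3.23, 5.28 and 5.41 in tagged cells, lower at each (-0.58, -1.23 and -0.99) and still lower relative to the overall shift. In GRO-seq the site within the gene was lower in DKO (4.22 in WT, 3.83 in DKO), and the 2 sites past its end were higher (2.67 and 3.31, 2.33 and 3.35). The sites past the end were thus lower in tagged RAW cells and higher in the DKO primary cells. There was 1 library or column on each side. Relative to the shifts over all sites they stood at -0.935 and -0.695 in tagged cells and at 0.56 and 0.94 in DKO, short of the size rule. Of all sites 62.6% were lower in tagged cells and 811 of 1544 were higher in DKO. The share with both was not computed, so the pairing is not a result about Pvt1. The transcript was at 12.45 and 12.90 in WT and 12.76 and 12.50 in DKO, with overlapping runs.

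The other genes with 2 sites passed no size rule at these sites or transcripts, except at the Senp2 and 1810010D01Rik sites given above. A530013C23Rik, near Cebpb, had intergenic sites 6089 bp apart that were each 0.57 lower in tagged cells (8.41 to 7.84 and 8.29 to 7.72). In DKO they were 0.13 and 0.66 higher. Relative to the shifts over all sites, its sites were each at -0.275 in tagged cells and at 0.0475 and 0.57 in DKO. Its transcript ran from 9.83 and 9.42 in WT to 9.67 and 10.17 in DKO, with overlap. Btbd19, of a family of BTB-domain proteins, was lower at both sites in tagged cells (-0.33 and -0.63) and in DKO (-0.265 and -0.06) as deposited. Relative to the shifts over all sites these were -0.035 and -0.335 in tagged cells and -0.3475 and -0.1425 in DKO. The Btbd19 transcript runs overlapped. Stoml1, of the stomatin family, had sites 739 bp apart that differed in opposite directions in DKO (0.555 and -0.27), and its transcript was at 8.37 and 8.32 in WT and 8.40 and 8.76 in DKO. Senp2 was at 10.52 and 10.40 in WT and at 10.57 in both DKO runs. Its neighbour Igf2bp2, an mRNA-binding protein gene with a common site of its own, had means of 10.46 and 10.95, a difference of 0.48 that was not called.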

How the data were processed

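The authors deposited a table of common RevErb sites whose values are log2 tags per 10000000, per the file headers, over 157 bp of ChIP-seq and over 500 bp of 5'GRO-seq. Neither the GRO-seq window at sites nor any per-length scaling at genes was given in the sources used here. The submitters' processing notes name mm9, Bowtie 0.12.7 and HOMER. Classes, distances and gene assignments are the authors'. A column headed BirA-input stands here for the BirA library, but could be an input, and the headers list treated libraries without tying them to runs.

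Run means and differences were computed in Python 3.11.15 with pandas 2.3.3 and scipy 1.17.1. Tags behind a value were approximated by undoing the scaling and the logarithm (1 added before it), to the whole tag below. Over the whole table, a gene was called at 0.5 with runs not overlapping and a site at 1. Members described in full were called, had 2 or more sites, were among the 5 most bound, had a 5'GRO-seq difference of 1 at a level of 3, or were listed RNAs; others were named after their values were seen. RefSeq (GRCm38.p6) gave names, neighbours and sequences. The rule for the members uses no measured value, but it and the lists were chosen with earlier results of these data known. H3K9ac, H3K4me1 and PU.1 libraries were not analysed here.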

Additional observations from a re-analysis of the deposited data

How the results depend on the processing

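No paired analysis was possible because each group has 1 sample and the runs share only a number. Of the gene calls, 1 member was higher and 1 lower as reported. Without WT run 1 the numbers were 4 higher and 2 lower; leaving out WT run 2 gave 2 and 3, leaving out DKO run 1 gave 4 and 1, and leaving out DKO run 2 gave 2 and 3. Both numbers were 0 among members above the lower quartile of level and 0 at a size of 1; fewer IDs could be called in each. The median member difference lay between -0.0275 and 0.05 in these settings. In 5'GRO-seq the share of sites lower, 14.04%, became 8.77% with 10 added before the logarithm and 7.02% centred (15.3% of all sites when centred). It was 29.8% at a size of 0.5 and 25% within 10 kb of the start (18.7% of all sites there). The share higher, 7.02%, became 3.51%, 12.3% (9.26% of all sites when centred), 15.8% and 0% (2.56% of all sites there). The centred 12.3% includes sites of about 0 tags. With 10 added, here or in GRO-seq at sites, and at a size of 0.5, the shares over all sites were not computed. Those member shares therefore cannot be read as high or low. The median moved from -0.24 to 0.055 when centred. In GRO-seq at sites the share higher, 5.26%, became 0% with 10 added and 0% centred (2.20% of all sites when centred). Median binding less BirA was 4.53 for RevErbalpha and 4.67 for RevErbbeta. The cause was not tested. Counting each summary value in each changed setting, 33 comparisons stayed within the limits set and 24 moved. The limit was a ratio of 1.5 for counts and shares. For medians it was 0.16 on the log2 scale for genes, 0.25 for sites and 0.76 for binding. Depth limits the 4 control and 8 tagged 5'GRO-seq values at about 0 tags.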
